A study of Arabidopsis thaliana with 20 samples.

Results

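Shoots of Arabidopsis thaliana carrying the autoimmune gene pair DM6-DM7 were compared with Col-0, the reference accession, first with intact ADR1 helper genes and then in the adr1s background, and the measurement described here is the difference between these 2 effects. DANGEROUS MIX (DM) genes are natural immune gene variants that cause autoimmunity when they meet in 1 plant. The DM6-DM7 plants were made by transformation of Col-0 with the gene pair. The adr1s plants carried CRISPR-Cas9 knockouts of ADR1, ADR1-L1 and ADR1-L2, made with several guides at a time. All plants grew on Murashige and Skoog medium with sucrose in long days. The 12 libraries, of 20 in the series, formed 4 groups of 3 that the labels call biological replicates: DM6-DM7 at 14 days after sowing (DAS), Col-0 14 DAS, DM6-DM7 adr1s and Col-0 adr1s. The labels give no age for the adr1s groups and do not say how many transgenic or edited lines each group came from. For each gene the log2 effect of DM6-DM7 against Col-0 14 DAS (the intact pair) was taken, and the log2 effect of DM6-DM7 adr1s against Col-0 adr1s (the adr1s pair) was subtracted from it. Both effects use libraries of 1 label batch each, batch 2 for the intact pair and batch 3 for the adr1s pair. The adr1s state, the label batch and any difference in age therefore cannot be told apart, and a difference of effects is given as measured.

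As background, DM6 alleles belong to the RPP7 cluster of nucleotide-binding leucine-rich repeat receptors (NLRs), and DM7 alleles belong to the RPW8/HR family of membrane-associated proteins. RPP7-type receptors and RPW8/HR-type proteins from different accessions can form an active complex, and the plant then behaves as if it were under attack. ADR1, ADR1-L1 and ADR1-L2 are helper NLRs. They work with the lipase-like proteins EDS1 and PAD4 downstream of many receptors, and the signal raises salicylic acid, the hormone of defence against biotrophic pathogens. Plants in this state are small, so growth, photosynthesis and defence transcripts usually change together.

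The libraries held 48360933 to 127276992 counts, and those of the adr1s groups (48360933 to 58724115) were shallower than those of the intact groups (97800801 to 127276992). A count of 0 allows up to 3 counts, which is 0.0236 to 0.0307 CPM (counts per 1000000 of the scaled library total) in the intact groups and 0.0511 to 0.062 in the adr1s groups, before scaling and for counting error only. The 3 libraries of Col-0 14 DAS differed more from each other than those of any other group: the chi-square of a pair of libraries per gene was 97.0 to 371 there and 7.69 to 49.7 elsewhere. Replicate 1 of Col-0 14 DAS lay farthest from its group. For named genes whose call or size turns on it, the value without it is given beside the first. Transcripts of the edited genes were still counted. ADR1 (AT1G33560; chromosome 1, 12168768 to 12172119, annotation TAIR10.1) stood at 87.8, 83.9 and 78.5 CPM in DM6-DM7 against 23.4, 20.05 and 11.4 CPM in Col-0 14 DAS, and at 31.0, 37.7 and 43.9 in DM6-DM7 adr1s against 9.03, 8.68 and 12.4 in Col-0 adr1s. Counts per gene cannot show an edit in a transcript, and the knockout is taken from the labels.

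At the median, the DM6-DM7 effect was smaller in the adr1s pair, for genes that rose and for genes that fell. Of 23349 genes tested, 15124 (64.8%) passed the threshold in the intact pair, 8180 higher (35.0%) and 6944 lower (29.7%). In the adr1s pair 7290 (31.2%) passed, 4339 higher (18.6%) and 2951 lower (12.6%). The adr1s libraries were shallower, so the counts of calls do not compare the sizes of the effects alone. Genes that rose in the intact pair had a median log2 effect of 0.92 there and 0.38 in the adr1s pair. Genes that fell had medians of -1.24 and -0.38. Both sets were chosen by their call in the intact pair, so a smaller median in the adr1s pair is in part due to that choice. Of the 15124 genes called in the intact pair, the difference was called toward a smaller adr1s effect for 6939. The response kept its direction where it was seen in both: 6613 genes passed in both pairs, and 6508 of them (98.41%) moved the same way in both.

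The difference of effects passed an adjusted p of 0.05 (edgeR quasi-likelihood test, Benjamini-Hochberg over all genes tested) for 7277 genes (31.2%). Of these, 3478 were higher (14.9% of genes tested), meaning a more positive effect in the intact pair, and 3799 were lower (16.3%). At least 2-fold differences were found for 1194 genes higher (5.11%) and 2168 lower (9.29%). In 95.36% of the 7277 genes the intact effect had passed in the direction of the difference. The share of higher calls, 47.79%, depended on the scaling of the libraries: it was 28.99% with upper-quartile scaling, which moved the median difference of all genes from -0.005 to -0.167, and 37.98% with relative log expression scaling.

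By the calls of the 3 contrasts, the effect of 3879 genes was lost, meaning called in the intact pair, not called in the adr1s pair, and different between them. A missed threshold in the adr1s pair does not show that an effect is absent. For 2955 genes the effect was reduced, called in both pairs but smaller in the adr1s pair. For 3478 genes it was held, called in both with no called difference. It was larger in the adr1s pair for 265 genes and of opposite sign for 105. The remaining 12667 genes fell in none of these classes.

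**Figure D1:**
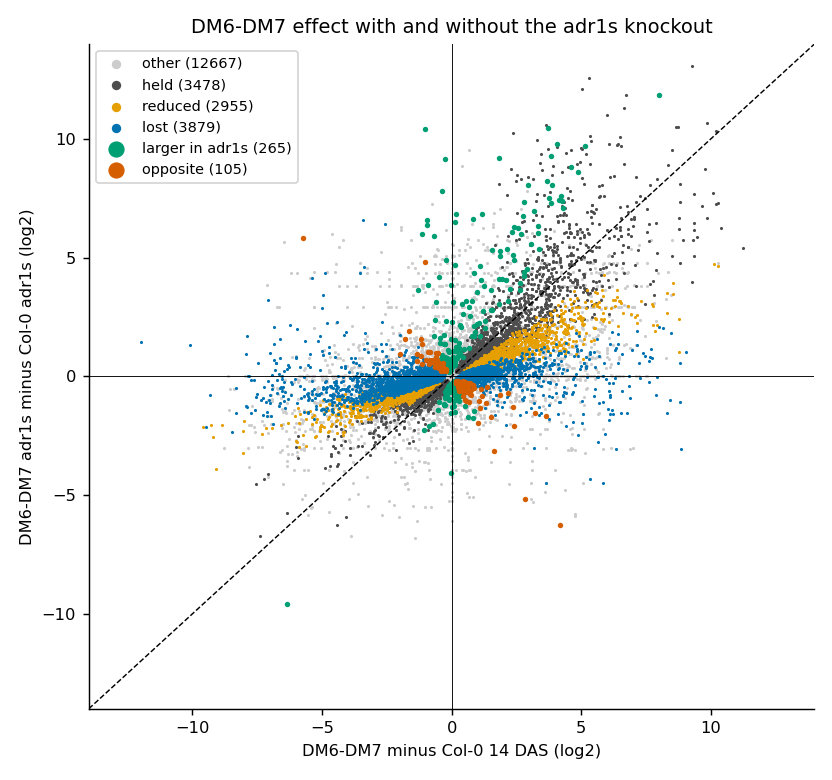
Log2 effect of DM6-DM7 in the intact pair (horizontal axis) against its log2 effect in the adr1s pair (vertical axis), 1 point for each of the 23349 genes tested, coloured by class; the dashed line marks equal effects. The 3879 lost genes lie along the horizontal axis, the 2955 reduced genes between that axis and the dashed line, and the 3478 held genes around the dashed line.

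Lists of genes with a shared role differed in how much of the effect they kept in the adr1s pair. Photosystem, light harvesting, chlorophyll, Calvin cycle, cell cycle, auxin and stomatal genes fell less there. Of 8 phosphate starvation genes, 6 rose in the intact pair (35.0% of all genes did) and 1 in the adr1s pair (18.6%). The EDS1 genes, many salicylic acid genes and the endoplasmic reticulum (ER) chaperones rose in both. Over all genes tested the median effects were 0.06 in the intact pair and 0.02 in the adr1s pair.

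**Figure D2:**
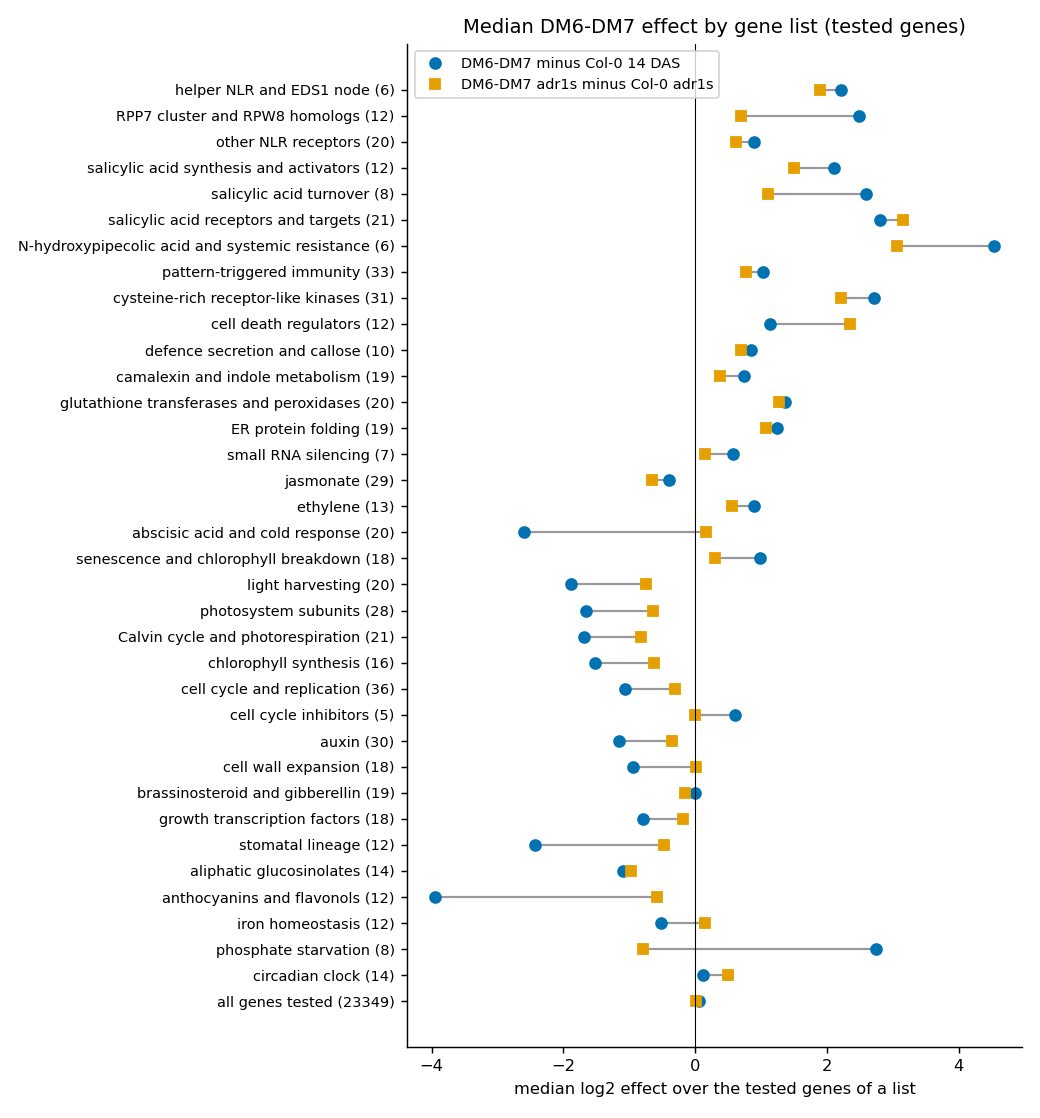
Median log2 effect of DM6-DM7 over the tested genes of each list (number of tested genes in brackets), for the intact pair (circles) and the adr1s pair (squares), joined by a line. The cell type marker lists are not drawn. Among the lists drawn, the phosphate starvation, stomatal, abscisic acid and cold, and anthocyanin lists have the longest lines, whereas the circles and squares of the ER protein folding list (1.24 and 1.07) nearly coincide.

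Among all lists, phosphate starvation genes had the highest median difference. Plants short of phosphate induce high-affinity phosphate transporters, SPX proteins that sense inositol pyrophosphates, and enzymes that replace phospholipids or release phosphate from organic compounds. Of the 8 genes, 5 had a higher effect in the intact pair (14.9% of all genes did) and none a lower one, with a median difference of 3.20 against -0.005 over all genes. The count ranged from 5 to 7 and the median from 2.60 to 3.48 when each library was left out in turn.

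PHT1;1 (AT5G43350; chromosome 5, 17399769 to 17402158), a phosphate transporter of the plasma membrane, stood at 144, 171 and 174 CPM in DM6-DM7 against 4.00, 5.27 and 3.96 CPM in Col-0 14 DAS. In the adr1s groups it stood at 5.02, 9.52 and 8.73 CPM with the gene pair and 7.53, 5.53 and 10.4 without it. All 3 DM6-DM7 libraries were far above the other 9, and the adr1s groups overlapped. Reads of similar neighbouring transporter genes may be shared with it. The difference of effects was 5.22 ± 0.36 (SE) on the log2 scale (edgeR adjusted p = 5.07e-07), made of 5.21 ± 0.28 in the intact pair and -0.01 ± 0.24 in the adr1s pair. Its relative PHT1;4 (AT2G38940; chromosome 2, 16257157 to 16260253) stood at 54.3, 63.9 and 88.4 CPM in DM6-DM7, 6.38, 4.38 and 9.31 CPM in Col-0 14 DAS, 23.2, 28.6 and 23.4 in DM6-DM7 adr1s and 22.9, 22.0 and 33.2 in Col-0 adr1s. Again the adr1s groups overlapped, and the difference was 3.42 ± 0.43 (edgeR adjusted p = 3.38e-05).

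SPX3 (AT2G45130; chromosome 2, 18606410 to 18607853), an SPX-domain protein gene induced when phosphate is scarce, had low counts, at 0.734, 1.3 and 2.51 CPM in DM6-DM7 against 0.27, 0.038 and 0.047 CPM in Col-0 14 DAS. It stood at 0.191, 0.384 and 0.19 CPM in DM6-DM7 adr1s and 0.782, 0.807 and 0.875 in Col-0 adr1s, so that it was high with the gene pair in the intact groups and low with it in the adr1s groups, with no overlap in either pair. The effects of 3.65 ± 0.63 and -1.68 ± 0.60 were called in opposite directions, and their difference was 5.32 ± 0.87 (edgeR adjusted p = 2.50e-04), or 6.79 without Col-0 14 DAS replicate 1. PHT1;1, PHT1;4 and SPX3 passed under each of the 21 alternative settings. PEPC1 (AT1G17710; chromosome 1, 6090405 to 6092027), annotated as a pyridoxal phosphate phosphatase-related protein and not a member of the list, had the pattern of SPX3, at 7.02, 5.39 and 11.5 CPM in DM6-DM7 against 1.44, 1.37 and 1.66 CPM in Col-0 14 DAS, and 1.31, 2.1 and 1.51 in DM6-DM7 adr1s against 10.9, 5.49 and 4.63 in Col-0 adr1s.

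The 250 bases before the annotated start were read for these genes from the genome TAIR10.1, since transcripts that move together may share promoter letters. Motifs were searched on both strands: the element GNATATNC, bound by phosphate starvation regulators of the PHR1 type, the dehydration element core CCGAC, the W-box TTGACC or TTGACT of WRKY factors, the as-1 core TGACG of TGA factors, and the G-box CACGTG. The first 2 were added after the leading genes had been seen. GNATATNC was found in 2 of the 8 list promoters (25.0%) and in 5.42% of 23117 promoters of tested genes. SPX3 held it at positions -213 and -90, counted from the start, with an as-1 core at -107, whereas PHT1;1 held none of the 5 motifs in this window. Capitals mark the matches, none of which overlaps another, and a match is a description of letters only.
SPX3 (chr2:18606160-18606409, plus strand): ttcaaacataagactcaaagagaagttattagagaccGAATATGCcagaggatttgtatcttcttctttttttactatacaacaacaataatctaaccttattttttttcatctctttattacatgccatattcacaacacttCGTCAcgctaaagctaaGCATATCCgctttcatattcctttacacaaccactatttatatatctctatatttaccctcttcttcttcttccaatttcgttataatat
PHT1;1 (chr5:17402159-17402408, minus strand): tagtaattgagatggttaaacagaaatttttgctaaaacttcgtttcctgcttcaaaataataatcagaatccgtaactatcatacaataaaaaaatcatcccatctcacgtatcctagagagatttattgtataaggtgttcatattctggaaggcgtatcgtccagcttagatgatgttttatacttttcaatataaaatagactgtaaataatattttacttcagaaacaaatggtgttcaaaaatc

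The helper NLR and EDS1 genes mostly kept their rise. All 6 tested genes with an annotated symbol rose in the intact pair (35.0% of all genes did) and 5 of 6 in the adr1s pair (18.6%). Their median effects were 2.21 and 1.89. The difference was called for 1 of 6, higher. NRG1.1, NRG1.2, NRG1.3 and EDS1B were tested but left out of these counts, as the annotation does not give their symbols. Their differences of 0.155, 0.246, -4.63 and -1.07 did not pass (edgeR adjusted p = 0.322, 0.47, 0.0988 and 0.119). Those of NRG1.3 and EDS1B passed under 1 of 21 alternatives each, DESeq2. PAD4 (AT3G52430), the partner of EDS1 in signalling with ADR1, stood at 111, 120.3 and 130.5 CPM in DM6-DM7 against 10.0, 28.6 and 18.1 CPM in Col-0 14 DAS, and at 55.4, 72.2 and 92.0 in DM6-DM7 adr1s and 6.91, 7.24 and 8.30 in Col-0 adr1s. Its 2 effects, 2.68 ± 0.38 and 3.29 ± 0.40, both passed, and the difference of -0.61 ± 0.51 did not (edgeR adjusted p = 0.399). EDS1 (AT3G48090) had effects of 1.31 ± 0.18 and 1.85 ± 0.18, and SAG101 (AT5G14930), the partner of EDS1 in signalling with NRG1 helpers, 2.23 ± 0.15 and 2.04 ± 0.16.

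ADR1-L2 was the exception among them, and it is itself 1 of the edited genes. ADR1-L2 (AT5G04720; chromosome 5, 1360589 to 1363907) stood at 110.4, 110.4 and 106 CPM in DM6-DM7 against 51.7, 45.4 and 31.5 CPM in Col-0 14 DAS, but at 14.1, 17.4 and 19.3 in DM6-DM7 adr1s and 16.9, 11.9 and 20.05 in Col-0 adr1s. The intact groups were apart and the adr1s groups overlapped, with a difference of 1.29 ± 0.24 (edgeR adjusted p = 7.23e-04), called under 21 of 21 alternatives. ADR1-L1 (AT4G33300) and ADR1 rose in both pairs, by 2.36 ± 0.14 and 2.19 ± 0.20 in the intact pair and 1.88 ± 0.14 and 1.90 ± 0.20 in the adr1s pair.

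Genes of the RPP7 cluster and the RPW8 homologs HR1 to HR4 lie at the loci from which DM6 and DM7 alleles come. The counts do not separate reads of the transgenes from reads of these Col-0 loci, and near-identical copies in the cluster may share reads, so their values are uncertain. RPP7 itself (AT1G58602) is left out of the counts below, as the annotation does not give its symbol. It was tested, and its difference of 0.17 did not pass (edgeR adjusted p = 0.445). Of 12 genes, 10 rose in the intact pair (35.0% of all genes did) and 6 in the adr1s pair (18.6%), with median effects of 2.48 and 0.70. The difference was higher for 4 and lower for none (14.9% and 16.3% of all genes tested). The higher count was 2 of 12 without DM6-DM7 adr1s replicate 2 or Col-0 adr1s replicate 3, and up to 6 without other libraries. HR4 (AT3G50480) stood at 1095, 1110 and 1028 CPM in DM6-DM7, 29.1, 166 and 47.3 CPM in Col-0 14 DAS, 268, 436 and 464 in DM6-DM7 adr1s and 26.7, 32.5 and 45.1 in Col-0 adr1s. The groups of each pair were apart, and the difference of 0.26 ± 0.64 did not pass (edgeR adjusted p = 0.817). HR3 (AT3G50470) was held as well, with effects of 5.05 ± 0.52 and 4.33 ± 0.59. HR2 (AT3G50460) had few counts, at 1.57, 1.06 and 1.06 CPM in DM6-DM7, 0, 0 and 0.0235 CPM in Col-0 14 DAS, 0.175, 0.162 and 0.174 in DM6-DM7 adr1s and 0.0326, 0.0384 and 0.0324 in Col-0 adr1s. AT1G58848, of the RPP7 cluster, stood at 3.48, 4.12 and 4.58 CPM in DM6-DM7 against 1.19, 1.4 and 0.975 CPM in Col-0 14 DAS, and at 7.16, 8.40 and 7.59 in DM6-DM7 adr1s and 6.70, 4.90 and 5.48 in Col-0 adr1s, a difference of 1.33 ± 0.32 (edgeR adjusted p = 0.00434).

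Among 20 tested genes of other NLR receptors, 17 rose in the intact pair and 16 in the adr1s pair, and 10 were held. The difference was higher for 5 and lower for 1 (14.9% and 16.3% of all genes tested), and the higher count fell to between 1 and 4 when any 1 of the 12 libraries was left out. AT3G44400, annotated as a disease resistance protein, stood at 32.6, 34.9 and 34.9 CPM in DM6-DM7, 3.02, 4.07 and 3.57 CPM in Col-0 14 DAS, 16.9, 20.7 and 23.2 in DM6-DM7 adr1s and 3.13, 3.90 and 3.73 in Col-0 adr1s. It rose in both pairs, less in the adr1s pair, with a difference of 0.76 ± 0.18 (edgeR adjusted p = 0.00478).

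The genes that make and activate salicylic acid went in different directions. Most of the isochorismate pathway was held, the TGA and WRKY28 regulators had smaller effects in the adr1s pair, and SARD1 and WRKY46 had larger log2 effects there. Of 12 genes, 3 had a higher and 3 a lower difference (14.9% and 16.3% of all genes), with medians of 2.11 in the intact pair and 1.5 in the adr1s pair. ICS1, annotated here as EDS16 (AT1G74710; chromosome 1, 28070295 to 28074177) and encoding the isochorismate synthase that starts the pathway, stood at 112, 122 and 128 CPM in DM6-DM7, 15, 44.3 and 26.1 CPM in Col-0 14 DAS, 60.1, 83.5 and 94.0 in DM6-DM7 adr1s and 14.6, 14.0 and 13.5 in Col-0 adr1s. It rose in both pairs, by 2.08 ± 0.45 and 2.50 ± 0.46, and the difference did not pass (edgeR adjusted p = 0.659). PBS3 (AT5G13320), which conjugates isochorismate to glutamate, and EDS5 (AT4G39030), which exports it from the plastid, were held as well, with adr1s effects of 6.20 ± 0.94 and 3.18 ± 0.50. The difference of PBS3, -2.59 ± 1.1 (edgeR adjusted p = 0.0874), passed without Col-0 14 DAS replicate 1, at -3.02 (edgeR adjusted p = 0.0462), and under 3 of 21 alternatives in all. CBP60G (AT5G26920), the partner of SARD1 in activating these genes, was held too, at 138, 155 and 159.7 CPM in DM6-DM7, 19.6, 20.9 and 7.19 CPM in Col-0 14 DAS, 36.3, 60.0 and 86.2 in DM6-DM7 adr1s and 3.42, 2.88 and 3.5 in Col-0 adr1s. ICS2 (AT1G18870), the minor isochorismate synthase, fell in the intact pair, with a difference of -1.42 ± 0.47 (edgeR adjusted p = 0.0292) that passed under 16 of 21 alternatives. Without Col-0 14 DAS replicate 1 it was -1.07 and did not pass (edgeR adjusted p = 0.0748).

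TGA1 (AT5G65210; chromosome 5, 26057533 to 26061157), a bZIP factor that activates SARD1 and CBP60G, stood at 65.0, 68.8 and 52.2 CPM in DM6-DM7 against 16.8, 10.6 and 11.9 CPM in Col-0 14 DAS. In the adr1s groups it stood at 18.6, 18.2 and 22.1 CPM with the gene pair and 14.2, 13.0 and 14.7 without it. The effect of 2.24 ± 0.16 in the intact pair was thus 0.49 ± 0.15 in the adr1s pair, a difference of 1.75 ± 0.22 (edgeR adjusted p = 2.42e-05). WRKY28 (AT4G18170), an activator of ICS1, stood at 6.63, 6.29 and 7.60 CPM in DM6-DM7, 1.88, 2.33 and 2.08 CPM in Col-0 14 DAS, 4.77, 3.84 and 4.11 in DM6-DM7 adr1s and 2.87, 4.07 and 3.14 in Col-0 adr1s, with overlap in the adr1s pair and a difference of 1.37 ± 0.21 (edgeR adjusted p = 1.22e-04). SARD1 (AT1G73805), a master regulator of salicylic acid synthesis, had the opposite sign on the log2 scale: 106, 119.8 and 117 CPM in DM6-DM7, 6.10, 9.88 and 2.3 CPM in Col-0 14 DAS, 30.4, 55.6 and 60.5 in DM6-DM7 adr1s and 0.212, 0.173 and 0.356 in Col-0 adr1s. The difference was -3.37 ± 0.76 on the log2 scale (edgeR adjusted p = 0.0036), and the level in Col-0 adr1s was the lowest of the 4 groups. WRKY46 (AT2G46400) behaved alike, with a difference of -3.22 ± 0.61 (edgeR adjusted p = 0.00113). On the CPM scale both rose more in the intact pair, SARD1 by 108.2 CPM against 48.6 CPM in the adr1s pair and WRKY46 by 45.3 CPM against 36.4 CPM.

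Most salicylic acid targets rose in both pairs. Where their log2 difference was called lower, its sign turned on the CPM scale, and where it was called higher the sign stayed. Of 21 receptor and target genes, 20 rose in the intact pair and 19 in the adr1s pair, and 10 were held. PR1 (AT2G14610; chromosome 2, 6241640 to 6242541), the standard marker of salicylic acid signalling, stood at 8146, 9096 and 8619 CPM in DM6-DM7 against 17.1, 51.1 and 31.3 CPM in Col-0 14 DAS. In the adr1s groups it stood at 884, 942 and 1401 CPM with the gene pair and only 0.13, 0.192 and 0.535 without it. No groups overlapped, and the level with the gene pair was lower in adr1s than with intact ADR1 genes. The log2 effects were 8.02 ± 0.77 and 11.85 ± 0.93, so the log2 difference was -3.83 ± 0.96 (edgeR adjusted p = 0.00744), while the difference of effects in CPM was 7512 in favour of the intact pair. BGL2 (AT3G57260), the beta-glucanase PR2, and PCC1 (AT3G22231) also had negative log2 differences, -4.57 ± 1.24 and -5.45 ± 0.97 (edgeR adjusted p = 0.0115 and 7.08e-04), with CPM differences of 1377 and 6.46 in the other direction. Over all genes called, the sign differed between the scales for 120 of 7277 (1.65%). Among the 171 genes with a larger rise in the adr1s pair on the log2 scale it differed for 50.

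The receptor NPR3 (AT5G45110; chromosome 5, 18228768 to 18231588) and the regulator WRKY18 had smaller effects in the adr1s pair on both scales. NPR3 stood at 107, 90.4 and 90.66 CPM in DM6-DM7, 22.9, 27.9 and 24.3 CPM in Col-0 14 DAS, 32.8, 34.8 and 44.4 in DM6-DM7 adr1s and 16.7, 18.2 and 19.4 in Col-0 adr1s. It rose in both pairs, with a difference of 0.89 ± 0.17 (edgeR adjusted p = 7.93e-04). NPR1 (AT1G64280), the co-activator among the receptors, was held, with effects of 1.16 ± 0.12 and 1.1 ± 0.12. WRKY18 (AT4G31800) stood at 142, 105 and 117 CPM in DM6-DM7, 20.6, 16.2 and 5.62 CPM in Col-0 14 DAS, 20.8, 21.4 and 28.2 in DM6-DM7 adr1s and 9.83, 11.4 and 12.5 in Col-0 adr1s, a difference of 2.03 ± 0.44 (edgeR adjusted p = 0.00246). PR5 (AT1G75040), a thaumatin-like defence protein, rose in both pairs, at 613, 627 and 647 CPM in DM6-DM7, 19.3, 28.6 and 32.7 CPM in Col-0 14 DAS, 116, 226 and 175 in DM6-DM7 adr1s and 15.4, 13.5 and 13.8 in Col-0 adr1s, and its difference did not pass (edgeR adjusted p = 0.0566). WRKY38 (AT5G22570), a repressor of basal defence, was at 46.3, 47.2 and 41.5 CPM in DM6-DM7 and at most 0.228 CPM in Col-0 14 DAS, and at 5.01, 4.72 and 8.75 in DM6-DM7 adr1s and at most 0.0326 in Col-0 adr1s. In the whole list the difference was higher for 6 and lower for 4 (14.9% and 16.3% of all genes tested). Of these 10, WRKY70 and the TGA and NIMIN genes AHBP-1B, OBF5 and NIMIN-3 passed under 4 to 11 of 21 alternatives only. The higher count ranged from 2 to 7 when single libraries were left out and fell to 2 or 3 without any DM6-DM7 library, Col-0 14 DAS replicate 2 or 3, DM6-DM7 adr1s replicate 1 or Col-0 adr1s replicate 3.

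Genes that modify salicylic acid had 3 higher differences among 8 (14.9% of all genes tested), but only 1 or 2 when any library was left out. MES9 (AT4G37150), a methylesterase that releases salicylic acid from its methyl ester, was called under 21 of 21 alternatives. It stood at 69.7, 63.7 and 57.7 CPM in DM6-DM7, 5.37, 7.30 and 2.14 CPM in Col-0 14 DAS, 9.46, 10.7 and 18.1 in DM6-DM7 adr1s and 5.07, 3.65 and 5.30 in Col-0 adr1s. The rise was seen in both pairs and was larger in the intact pair by 2.24 ± 0.47 (edgeR adjusted p = 0.0021).

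N-hydroxypipecolic acid drives systemic acquired resistance, the spread of immunity to distant leaves. Of 6 tested genes with an annotated symbol the difference was higher for 2 (14.9% of all genes) and lower for none (16.3%). Both are lipid transfer genes. The lower count was 1 under 7 alternatives, among them other scalings and limma-voom, and 2 with DESeq2. AZI1 (AT4G12470; chromosome 4, 7401087 to 7401951), which takes part in long-distance priming by azelaic acid, stood at 559, 739.7 and 685 CPM in DM6-DM7 against 12.1, 21.6 and 21.5 CPM in Col-0 14 DAS, and at 234, 194 and 333 in DM6-DM7 adr1s and 40.3, 78.0 and 97.7 in Col-0 adr1s. Its neighbour and homolog EARLI1 (AT4G12480) stood at 1448, 2090 and 1944 CPM in DM6-DM7, 15.5, 43.2 and 37.5 CPM in Col-0 14 DAS, 277, 291 and 399 in DM6-DM7 adr1s and 25.0, 61.0 and 103 in Col-0 adr1s. The neighbours are similar and may share reads. Both rose in both pairs without overlap, and both had larger effects in the intact pair, by 3.35 ± 0.40 and 3.48 ± 0.58 (edgeR adjusted p = 2.33e-05 and 4.05e-04). FMO1 (AT1G19250), which makes N-hydroxypipecolic acid, rose in both pairs (4.31 ± 0.85 and 6.79 ± 1.14), and its difference did not pass (edgeR adjusted p = 0.218). ALD1 (AT2G13810), the first enzyme of the pathway, stood at 2.01, 2.04 and 2.17 CPM in DM6-DM7, 0.2, 3.26 and 0.364 CPM in Col-0 14 DAS, 0.59, 1.53 and 1.4 in DM6-DM7 adr1s and 0, 0 and 0 in Col-0 adr1s, so the intact groups overlapped. Its difference was negative and did not pass (edgeR adjusted p = 0.0977), but did under 3 of 21 alternatives, DESeq2 among them. DOX1 (AT3G01420), which starts the oxidation of fatty acids in defence, rose in both pairs (4.78 ± 0.57 and 3.78 ± 0.59). SARD4 (AT5G52810) and LLP1 (AT5G03350) were tested but left out of the counts, as the annotation does not give their symbols. Their differences of -0.21 and -0.98 did not pass (edgeR adjusted p = 0.754 and 0.231).

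Pattern-triggered immunity is the response to microbial molecules sensed at the cell surface. Of its 33 genes, 26 rose in the intact pair (35.0% of all genes did) and 23 in the adr1s pair (18.6%), and 14 were held. The difference was higher for 8 and lower for 2 (14.9% and 16.3% of all genes). The higher count ranged from 5 to 11 over the left-out libraries and was 5 without DM6-DM7 replicate 1 or 2 or DM6-DM7 adr1s replicate 1, and the lower count ranged from 1 to 4, reaching 4 without Col-0 14 DAS replicate 3. BIK1 (AT2G39660), a cytoplasmic kinase that passes the signal on from the receptors, stood at 78.7, 82.4 and 98.8 CPM in DM6-DM7, 13.9, 16.6 and 16.5 CPM in Col-0 14 DAS, 41.7, 39.4 and 47.0 in DM6-DM7 adr1s and 15.2, 14.4 and 15.3 in Col-0 adr1s. RBOHF (AT1G64060, annotated as RBOH F), an oxidase that makes reactive oxygen, stood at 56.5, 66.2 and 58.2 CPM in DM6-DM7, 16.1, 9.94 and 11.3 CPM in Col-0 14 DAS, 21.9, 25.8 and 30.5 in DM6-DM7 adr1s and 13.1, 14.4 and 14.6 in Col-0 adr1s. Both genes rose in both pairs without overlap, and their effects were larger in the intact pair by 0.96 ± 0.18 and 1.38 ± 0.23 (edgeR adjusted p = 6.63e-04 and 2.36e-04). PEPR1 (AT1G73080), the receptor of Pep peptides, fell instead, at 12.9, 6.35 and 10.0 CPM in DM6-DM7 against 38.7, 24.9 and 26.7 CPM in Col-0 14 DAS, and 27.0, 20.8 and 22.5 in DM6-DM7 adr1s against 36.3, 35.6 and 32.0 in Col-0 adr1s. Its fall was larger in the intact pair, with a difference of -1.06 ± 0.28 (edgeR adjusted p = 0.00827).

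Cysteine-rich receptor-like kinases rose widely in both pairs, 26 of 31 in the intact pair and 22 of 31 in the adr1s pair, and 17 were held. The difference was higher for 3 and lower for 4 (14.9% and 16.3% of all genes tested). The lower count was 8 without Col-0 14 DAS replicate 1 and 2 at the fewest. CRK2 (AT1G70520) stood at 77.4, 69.5 and 75.6 CPM in DM6-DM7, 19.2, 24.6 and 24.2 CPM in Col-0 14 DAS, 27.8, 34.3 and 33.1 in DM6-DM7 adr1s and 18.4, 16.4 and 17.7 in Col-0 adr1s, a difference of 0.85 ± 0.14 (edgeR adjusted p = 3.33e-04). CRK4 (AT3G45860) had the opposite sign on the log2 scale, -3.13 ± 0.90 (edgeR adjusted p = 0.0162), with 0.277, 0.346 and 0.745 CPM in Col-0 adr1s and 2.82, 17.6 and 8.44 CPM in Col-0 14 DAS.

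Cell death regulators included 2 genes whose log2 rise was larger in the adr1s pair. NUDT7 (AT4G12720), a Nudix hydrolase that holds back EDS1 signalling, stood at 106, 102 and 113 CPM in DM6-DM7 against 51.5, 51.7 and 27.1 CPM in Col-0 14 DAS. It stood at 78.7, 93.9 and 100.7 CPM in DM6-DM7 adr1s and 17.9, 17.7 and 19.3 in Col-0 adr1s. The levels with the gene pair were close to each other and the controls differed, which gave a difference of -1.01 ± 0.25 (edgeR adjusted p = 0.00523). ACD6 (AT4G14400), a membrane protein that promotes salicylic acid signalling, had a difference of -2.57 ± 0.58 (edgeR adjusted p = 0.00372) on the log2 scale, with 176, 222 and 176 CPM in DM6-DM7, 79.8, 131 and 80.0 CPM in Col-0 14 DAS, 38.0, 96.8 and 66.9 in DM6-DM7 adr1s and 6.63, 3.09 and 7.42 in Col-0 adr1s. On the CPM scale the sign turned: ACD6 rose by 94.3 CPM in the intact pair and 61.5 CPM in the adr1s pair, whereas NUDT7 rose by 63.7 and 72.8 CPM. In the whole list of 12, 11 rose in the intact pair and 7 in the adr1s pair (35.0% and 18.6% of all genes tested). The difference was higher for 1 and lower for 2 (14.9% and 16.3% of all genes tested).

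Peroxidases of the cell wall, which produce and use hydrogen peroxide, included genes with a smaller effect in the adr1s pair. PRX71 (AT5G64120; chromosome 5, 25659257 to 25661007) stood at 1252, 1578 and 1449 CPM in DM6-DM7, 40.8, 60.8 and 52.7 CPM in Col-0 14 DAS, 140.1, 119.9 and 216 in DM6-DM7 adr1s and 46.1, 58.3 and 63.1 in Col-0 adr1s. The 2 control groups overlapped, and the difference was 3.29 ± 0.28 (edgeR adjusted p = 1.56e-06). PRX34 (annotated as PRXCB, AT3G49120; chromosome 3, 18207651 to 18210333), of the oxidative burst at the wall, stood at 4141, 5036 and 5198 CPM in DM6-DM7, 88.1, 111 and 112 CPM in Col-0 14 DAS, 283, 399.5 and 483 in DM6-DM7 adr1s and 25.5, 30.5 and 42.2 in Col-0 adr1s, a difference of 1.96 ± 0.32 (edgeR adjusted p = 2.48e-04). Its close copy PRX33 (annotated as PRXCA, AT3G49110) went the other way, at 13.0, 6.38 and 7.14 CPM in DM6-DM7 against 23.9, 31.0 and 70.2 CPM in Col-0 14 DAS, with overlap in the adr1s pair (24.8, 38.1 and 34.2 CPM with the gene pair, 38.2, 34.6 and 44.3 without) and a difference of -1.97 ± 0.51 (edgeR adjusted p = 0.00907). Since the copies are alike in sequence, reads may be shared between them. Over the 20 genes of glutathione transferases and peroxidases the difference was higher for 4 and lower for 3, shares near those of all genes tested (14.9% and 16.3%).

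The ER protein folding genes mostly kept their effect, and the secretion genes did so in part. Of 19 ER protein folding genes, 17 rose in the intact pair (35.0% of all genes did), 18 in the adr1s pair (18.6%), and 15 were held. The difference was higher for 2 and lower for none (14.9% and 16.3% of all genes tested). The 2 encode sensors of ER stress. IRE1A (AT2G17520), a kinase and endonuclease of the ER membrane, stood at 56.4, 64.9 and 54.3 CPM in DM6-DM7, 21.8, 24.4 and 29.0 CPM in Col-0 14 DAS, 32.5, 35.2 and 37.8 in DM6-DM7 adr1s and 23.9, 25.5 and 26.7 in Col-0 adr1s, a difference of 0.75 ± 0.13 (edgeR adjusted p = 5.29e-04). BZIP28 (AT3G10800), a membrane-tethered transcription factor, had a difference of 0.53 ± 0.10 (edgeR adjusted p = 7.82e-04). Of 10 genes of defence secretion and callose, 8 rose in the intact pair and 7 in the adr1s pair, and 4 were held. The difference was higher for 3 (14.9% of all genes tested). Among them PDLP5 (annotated as HWI1, AT1G70690), which closes plasmodesmata, stood at 43.3, 49.2 and 37.0 CPM in DM6-DM7, 2.68, 3.09 and 3.86 CPM in Col-0 14 DAS, 4.67, 8.06 and 10.0 in DM6-DM7 adr1s and 2.40, 1.31 and 2.11 in Col-0 adr1s, a difference of 1.79 ± 0.37 (edgeR adjusted p = 0.00204).

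In the 7 small RNA silencing genes the difference was higher for 3 and lower for none (14.9% and 16.3% of all genes tested). The higher count was 1 to 3 over the left-out libraries. AGO3 (AT1G31290), an Argonaute protein, passed under 21 of 21 alternatives. It stood at 12.9, 13.7 and 12.2 CPM in DM6-DM7, 2.18, 1.75 and 1.73 CPM in Col-0 14 DAS, 3.40, 3.59 and 4.88 in DM6-DM7 adr1s and 2.59, 2.04 and 1.52 in Col-0 adr1s. It rose in both pairs, with a difference of 1.83 ± 0.27 (edgeR adjusted p = 1.07e-04). Of 19 camalexin and indole genes the difference was lower for 5 and higher for none (16.3% and 14.9% of all genes tested). It was lower for 2 or 3 without DM6-DM7 replicate 2 or any Col-0 adr1s library. MYB34 (AT5G60890), a regulator of indole glucosinolates, was at 11.4, 11.5 and 11.5 CPM in DM6-DM7 against 43.0, 24.1 and 24.1 CPM in Col-0 14 DAS, while the adr1s groups overlapped, at 19.2, 23.8 and 23.2 CPM with the gene pair and 24.6, 23.6 and 22.1 without it, and its difference was -1.32 ± 0.33 (edgeR adjusted p = 0.00692).

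**Figure D3:**
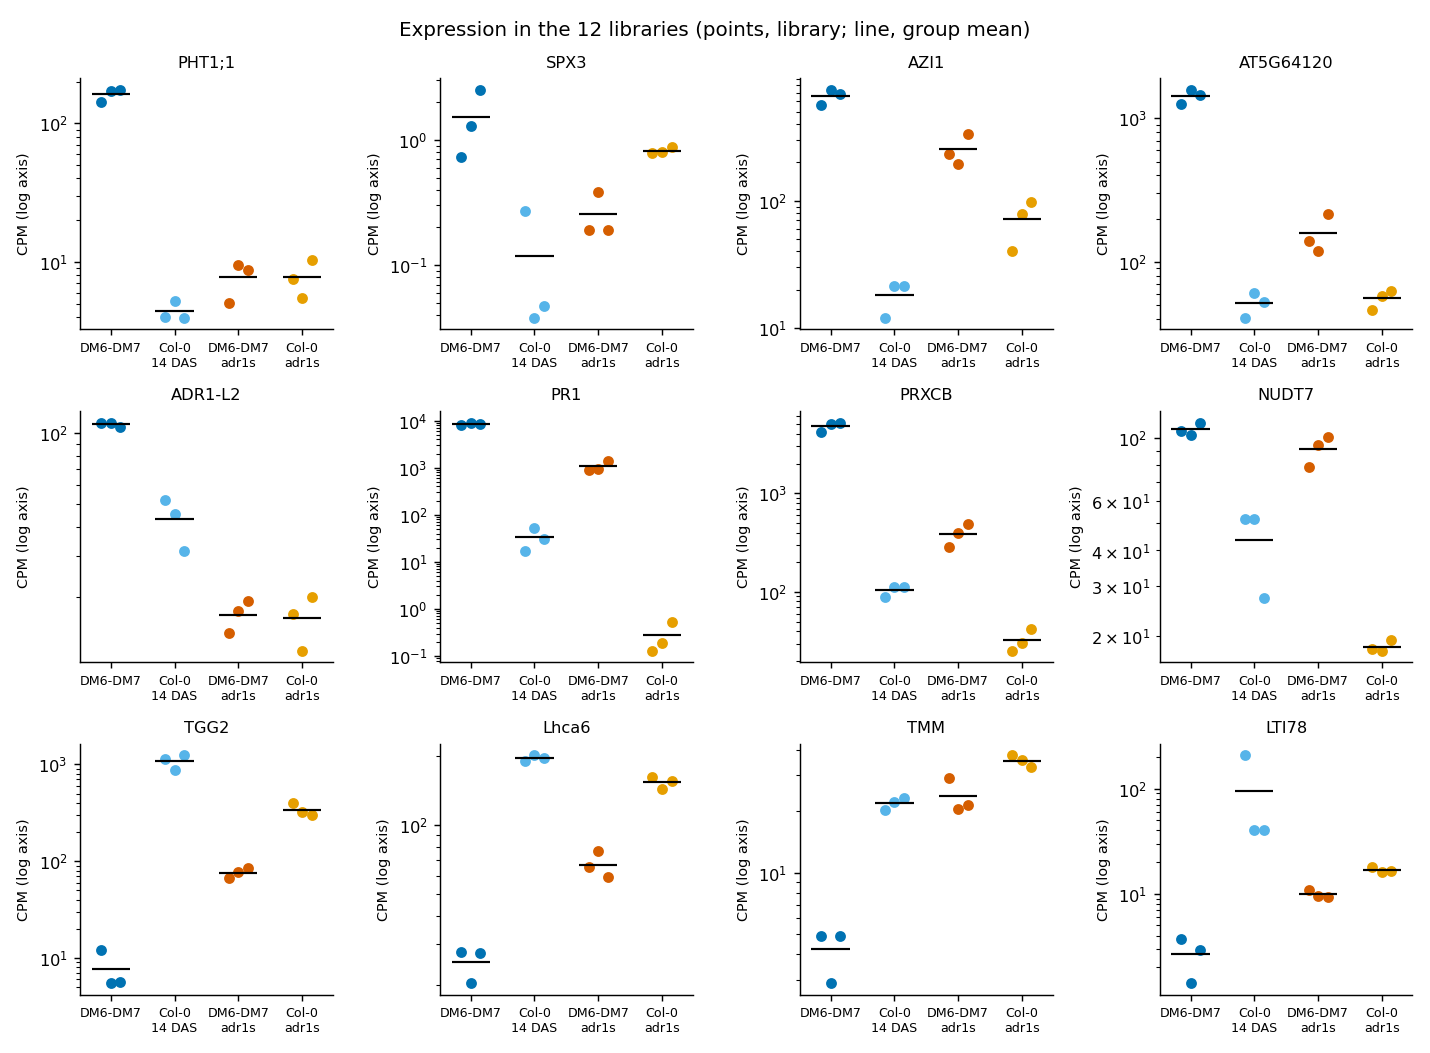
Expression of 12 genes in each of the 12 libraries in CPM (log axis), points for libraries and lines for group means. PHT1;1, ADR1-L2 and LTI78 differ between the intact groups, the first 2 with overlapping adr1s groups; for PR1 the lowest group is Col-0 adr1s, and for TGG2, Lhca6 and TMM the lowest is DM6-DM7.

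Jasmonate genes did not move as a block. The hormone derives from plastid lipids, acts through removal of JAZ repressors, and often opposes salicylic acid. In the intact pair 5 of 29 tested genes rose and 12 fell (29.7% of all genes fell), and in the adr1s pair 3 rose and 14 fell (12.6%). The difference was higher for 8 and lower for 4 (14.9% and 16.3% of all genes tested), and higher for 13 without Col-0 14 DAS replicate 1. CYP94C1 (AT2G27690), which oxidises the active hormone, stood at 3.85, 4.07 and 6.75 CPM in DM6-DM7 against 0.921, 1.39 and 1.71 CPM in Col-0 14 DAS, and at 3.88, 2.36 and 3.27 in DM6-DM7 adr1s and 5.05, 6.67 and 4.54 in Col-0 adr1s. It rose in the intact pair and fell in the adr1s pair, with a difference of 2.64 ± 0.35 (edgeR adjusted p = 4.57e-05). The repressor gene JAZ7 (AT2G34600) had the same pattern, at 3.09, 3.54 and 5.67 CPM in DM6-DM7, 2.04, 1.81 and 0.0235 CPM in Col-0 14 DAS, 0.351, 0.118 and 0.38 in DM6-DM7 adr1s and 2.46, 3.19 and 1.95 in Col-0 adr1s, a difference of 4.81 ± 1.04 (edgeR adjusted p = 0.00284). AOS (AT5G42650), the allene oxide synthase of jasmonate synthesis, fell in both pairs and more in the intact pair, at 66.9, 60.4 and 70.9 CPM in DM6-DM7 against 265, 263 and 287 CPM in Col-0 14 DAS, and 41.6, 53.0 and 45.4 in DM6-DM7 adr1s against 106, 96.5 and 102 in Col-0 adr1s. Its difference was -0.92 ± 0.13 (edgeR adjusted p = 5.92e-05). The defensin gene PDF1.2 (AT5G44420) was at 0.0392, 0 and 0 CPM in DM6-DM7 against 1.19, 12.9 and 29.9 CPM in Col-0 14 DAS, and at 3.94, 0.443 and 5.33 in DM6-DM7 adr1s and 1.24, 0.922 and 1.67 in Col-0 adr1s, where the groups overlapped. Its reads may be shared with near-identical defensin copies.

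Ethylene genes with a higher difference numbered 3 of 13 (14.9% of all genes tested). ACS7 (AT4G26200), an enzyme of ethylene synthesis, stood at 23.6, 24.1 and 31.4 CPM in DM6-DM7, 0.831, 3.29 and 1.58 CPM in Col-0 14 DAS, 5.49, 5.70 and 6.51 in DM6-DM7 adr1s and 1.99, 2.92 and 3.92 in Col-0 adr1s. It rose in both pairs, by 2.78 ± 0.47 more in the intact pair (edgeR adjusted p = 4.01e-04). EIN2 (AT5G03280) and EIN3 (AT3G20770), the central signal protein and transcription factor of the pathway, had differences of 0.54 ± 0.12 and 0.62 ± 0.13 (edgeR adjusted p = 0.00222 and 0.00138). The lower count of 1 ranged from 0 to 4 over the left-out libraries.

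Among senescence and chlorophyll breakdown genes more rose in the intact pair than in the adr1s pair. Of 18, 12 rose in the intact pair and 8 in the adr1s pair. The difference was higher for 7 (5 to 9 over the left-out libraries) and lower for 1. Over all genes tested these shares were 14.9% and 16.3%. ORE1 (annotated as NAC6, AT5G39610), a NAC factor that drives leaf senescence, stood at 60.2, 54.4 and 52.9 CPM in DM6-DM7, 4.25, 6.77 and 5.47 CPM in Col-0 14 DAS, 11, 8.90 and 13.6 in DM6-DM7 adr1s and 2.77, 2.92 and 3.21 in Col-0 adr1s. PAO (annotated as ACD1, AT3G44880), which opens the chlorophyll ring, stood at 218, 246 and 222 CPM in DM6-DM7, 103, 93.9 and 97.7 CPM in Col-0 14 DAS, 89.0, 86.9 and 99.6 in DM6-DM7 adr1s and 79.2, 71.2 and 79.0 in Col-0 adr1s. Both rose in both pairs without overlap, by 1.43 ± 0.23 and 0.96 ± 0.14 more in the intact pair (edgeR adjusted p = 2.27e-04 and 7.75e-05). SEN1 (AT4G35770), induced by darkness, was called in opposite directions, at 75.7, 92.3 and 55.3 CPM in DM6-DM7 against 36.7, 56.5 and 59.0 CPM in Col-0 14 DAS, which overlapped, and 24.3, 30.6 and 30.0 in DM6-DM7 adr1s and 69.4, 57.5 and 48.8 in Col-0 adr1s.

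Abscisic acid and cold response genes had a lower median difference than all lists but anthocyanins, and its size depended on replicate 1 of Col-0 14 DAS. Their summed level was 2572 CPM in that library and 469 and 425 CPM in the other 2 of its group. The sums ran from 456 to 502.5 CPM in DM6-DM7, 248 to 271 with the gene pair in adr1s, and 267 to 299.7 in Col-0 adr1s. Of 20 genes, 14 fell in the intact pair by edgeR and none was called in the adr1s pair, where 1 had an unadjusted p below 0.05. The difference was lower for 10 (16.3% of all genes tested) and higher for none, with a median of -3.43. Without Col-0 14 DAS replicate 1 it was lower for 7 and higher for 1, with a median of -1.55. With limma-voom and sample quality weights, which gave that library a weight of 0.147, it was lower for 2. It was lower for 15 or 16 without replicate 2 or 3 of Col-0 14 DAS. RD29A (annotated as LTI78, AT5G52310; chromosome 5, 21240717 to 21243644), a classic target of cold and drought signals, stood at 3.69, 1.4 and 2.90 CPM in DM6-DM7, 207, 40.6 and 40.1 CPM in Col-0 14 DAS, 10.8, 9.42 and 9.32 in DM6-DM7 adr1s and 18.0, 16.1 and 16.6 in Col-0 adr1s. The groups of each pair were apart, and the difference was -4.40 ± 0.78 (edgeR adjusted p = 6.94e-04) and -3.15 without Col-0 14 DAS replicate 1. COR15A (AT2G42540), which protects chloroplast membranes from freezing, stood at 0.617, 0.449 and 0.356 CPM in DM6-DM7, 89.0, 7.13 and 7.66 CPM in Col-0 14 DAS, 1.0, 1.56 and 1.09 in DM6-DM7 adr1s and 2.66, 1.46 and 2.11 in Col-0 adr1s, with a difference of -5.43 ± 1.3 (edgeR adjusted p = 0.00544) and of -3.20 without that library. Its neighbour COR15B is similar and may share its reads.

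The promoters of these genes are shown because they carry the dehydration element core CCGAC, to which cold-induced CBF factors bind. It was found in 4 of the 20 list promoters (20.0%) and in 12.5% of all. RD29A held it at -140, -90 and -33, and COR15A at -142 and -79, beside an as-1 core at -40 and a G-box at -28. Capitals mark all matches.
LTI78 (chr5:21240467-21240716, plus strand): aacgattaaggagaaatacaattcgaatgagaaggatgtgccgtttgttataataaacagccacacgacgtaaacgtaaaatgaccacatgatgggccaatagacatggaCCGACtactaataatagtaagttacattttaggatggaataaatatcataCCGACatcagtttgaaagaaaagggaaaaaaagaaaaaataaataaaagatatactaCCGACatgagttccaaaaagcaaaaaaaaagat
COR15A (chr2:17712331-17712580, minus strand): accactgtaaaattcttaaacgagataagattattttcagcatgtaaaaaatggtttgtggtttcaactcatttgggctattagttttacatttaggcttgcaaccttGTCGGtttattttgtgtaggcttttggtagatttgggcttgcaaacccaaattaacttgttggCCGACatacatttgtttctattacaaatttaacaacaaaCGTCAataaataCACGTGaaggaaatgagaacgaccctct

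Photosynthesis genes fell in both pairs, and fell more in the intact pair. All 28 tested photosystem subunit genes fell in both pairs and had a lower difference (16.3% of all genes did), with medians of -1.66 in the intact pair, -0.65 in the adr1s pair and -0.995 for the difference. Of 20 tested light harvesting genes the difference was lower for 16, of 21 Calvin cycle and photorespiration genes for 18, and of 16 chlorophyll synthesis genes for 12, and it was higher for none. Over the left-out libraries these 4 counts stayed within 27 to 28, 15 to 17, 15 to 19 and 10 to 13. The summed level of the photosystem list was 24410 to 28010 CPM in DM6-DM7, 67580 to 93800 across Col-0 14 DAS, 25600 to 31590 with the gene pair in adr1s, and 43190 to 46320 in Col-0 adr1s. The 2 groups with the gene pair were thus close, and the controls differed. In such bulk tissue, fewer cells of a type and less RNA per cell cannot be told apart.

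LHCA6 (annotated as Lhca6, AT1G19150; chromosome 1, 6612630 to 6613972), of the antenna of photosystem I, stood at 27.8, 20.3 and 27.6 CPM in DM6-DM7, 189.7, 202 and 196 CPM in Col-0 14 DAS, 65.5, 76.5 and 59.3 in DM6-DM7 adr1s and 162, 144 and 156 in Col-0 adr1s. Its fall was larger in the intact pair, with a difference of -1.76 ± 0.19 (edgeR adjusted p = 9.32e-06). LHCB2.3 (AT3G27690), of the antenna of photosystem II, whose close copies may share its reads, was at 151, 84.8 and 119.7 CPM in DM6-DM7 against 1986, 3414 and 3591 CPM in Col-0 14 DAS, and 309.5, 414 and 224 in DM6-DM7 adr1s against 1513, 1232 and 1295 in Col-0 adr1s, a difference of -2.57 ± 0.38 (edgeR adjusted p = 1.32e-04). Plastocyanin (PETE2, annotated as DRT112, AT1G20340), the electron carrier to photosystem I, had a difference of -1.28 ± 0.15, and PGK1 (AT3G12780), a phosphoglycerate kinase of the Calvin cycle, -1.19 ± 0.15 (edgeR adjusted p = 1.31e-05 and 2.70e-05). FLU (AT3G14110), the brake on chlorophyll synthesis in the dark, stood at 48.5, 50.5 and 47.1 CPM in DM6-DM7, 150.0, 145 and 144 CPM in Col-0 14 DAS, 90.9, 82.0 and 79.3 in DM6-DM7 adr1s and 132, 129 and 128 in Col-0 adr1s. The fall was larger in the intact pair, with a difference of -0.96 ± 0.09 (edgeR adjusted p = 3.75e-06).

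Cell cycle genes had lower summed levels with the gene pair in both pairs, and more of them passed the test in the intact pair. The sum was 267.9 to 319.2 CPM in DM6-DM7 against 510.2 to 712.2 CPM in Col-0 14 DAS, and 711 to 800.5 in DM6-DM7 adr1s against 914.6 to 1007 in Col-0 adr1s, with no overlap in either pair. Of 36 genes, 33 fell in the intact pair and 11 in the adr1s pair, and 2 rose in each. The difference was lower for 24 and higher for 1 (16.3% and 14.9% of all genes tested), with 15 lost and 10 reduced. The lower count ranged from 20 to 31 over the left-out libraries. TSO2 (AT3G27060), a subunit of the ribonucleotide reductase that makes DNA precursors, stood at 29.3, 24.6 and 28.9 CPM in DM6-DM7, 115, 82.3 and 73.8 CPM in Col-0 14 DAS, 86.4, 84.1 and 82.6 in DM6-DM7 adr1s and 112, 118 and 110.3 in Col-0 adr1s. The mitotic cyclin CYCB2;2 (AT4G35620) stood at 1.29, 1.02 and 1.07 CPM in DM6-DM7 against 5.33, 2.45 and 4.06 CPM in Col-0 14 DAS, with overlap between DM6-DM7 adr1s (6.73, 6.14 and 6.04) and Col-0 adr1s (7.83, 5.57 and 6.21). Their differences were -1.29 ± 0.21 and -1.75 ± 0.33 (edgeR adjusted p = 2.54e-04 and 7.27e-04). CYCD3;3 (AT3G50070), a cyclin of the entry into division, was the 1 gene with a higher difference, 0.64 ± 0.14 (edgeR adjusted p = 0.00202). The inhibitor KRP1 (annotated as ICK1, AT2G23430) rose in the intact pair, at 28.7, 29.5 and 28.3 CPM in DM6-DM7 against 12.8, 16.4 and 16.4 CPM in Col-0 14 DAS, while the adr1s groups overlapped, at 14.2, 18.1 and 20.7 CPM with the gene pair and 18.2, 17.2 and 17.7 without it, a difference of 0.93 ± 0.18 (edgeR adjusted p = 9.21e-04), the 1 called among 5 inhibitors.

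Auxin genes followed the cell cycle in direction, with 19 of 30 lower in the intact pair and 7 in the adr1s pair. The difference was lower for 15 and higher for 2 (16.3% and 14.9% of all genes tested). PID (AT2G34650), a kinase that acts in auxin signalling, was called in opposite directions: 4.83, 3.86 and 5.37 CPM in DM6-DM7, 14.5, 6.94 and 10.7 CPM in Col-0 14 DAS, 7.19, 7.19 and 8.48 in DM6-DM7 adr1s and 4.71, 4.03 and 3.76 in Col-0 adr1s. Its difference was -2.07 ± 0.27 (edgeR adjusted p = 4.22e-05). The 2 genes with a higher difference both encode GH3 enzymes, which conjugate hormones to amino acids: GH3.5 (annotated as WES1, AT4G27260) and GH3.6 (annotated as DFL1, AT5G54510). GH3.5 stood at 50.1, 43.3 and 36.5 CPM in DM6-DM7, 12.8, 14.1 and 14.1 CPM in Col-0 14 DAS, 30.9, 29.9 and 28.2 in DM6-DM7 adr1s and 28.0, 26.8 and 24.1 in Col-0 adr1s. The differences were 1.49 ± 0.13 and 1.85 ± 0.31 (edgeR adjusted p = 2.05e-06 and 3.35e-04).

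Cell wall expansion genes went both ways. Of 18 genes the difference was lower for 9 and higher for 4 (16.3% and 14.9% of all genes tested). Among the lower were 2 expansins, which loosen walls during growth: EXPA5 (AT3G29030; chromosome 3, 11011262 to 11013451) stood at 5.45, 2.83 and 3.32 CPM in DM6-DM7, 79.0, 53.1 and 70.0 CPM in Col-0 14 DAS, 15.4, 20.9 and 16.2 in DM6-DM7 adr1s and 32.0, 28.2 and 27.3 in Col-0 adr1s. EXPB1 (AT2G20750) stood at 0.411, 0.432 and 0.445 CPM in DM6-DM7, 27.8, 19.4 and 29.6 CPM in Col-0 14 DAS, 1.1, 2.33 and 1.57 in DM6-DM7 adr1s and 9.68, 3.98 and 6.0 in Col-0 adr1s. Both fell in both pairs and more in the intact pair, with differences of -3.39 ± 0.29 and -3.92 ± 0.49 (edgeR adjusted p = 1.56e-06 and 2.63e-05). Among the higher were 2 xyloglucan transferases, which cut and join wall polymers. XTH24 (AT4G30270) stood at 1178, 1449 and 1453 CPM in DM6-DM7, 36.9, 113 and 77.6 CPM in Col-0 14 DAS, 215, 279 and 321 in DM6-DM7 adr1s and 127.4, 144 and 145 in Col-0 adr1s. XTH30 (AT1G32170) stood at 33.7, 34.9 and 36.2 CPM in DM6-DM7, 1.33, 3.76 and 2.50 CPM in Col-0 14 DAS, 7.83, 8.74 and 7.99 in DM6-DM7 adr1s and 5.17, 5.46 and 7.10 in Col-0 adr1s. Both rose in the intact pair, and both were also higher with the gene pair in adr1s, without overlap in either pair. For both, the level was lower in Col-0 14 DAS than in Col-0 adr1s. Their differences were 3.20 ± 0.42 and 3.31 ± 0.35 (edgeR adjusted p = 5.49e-05 and 1.04e-05).

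Brassinosteroid and gibberellin genes had 5 higher and 3 lower differences among 19 (14.9% and 16.3% of all genes tested). There were 8 higher without Col-0 14 DAS replicate 3, and the lower count ranged from 1 to 4. GID1A (AT3G05120), a gibberellin receptor, stood at 44.1, 53.1 and 50.3 CPM in DM6-DM7, 9.42, 9.56 and 10.6 CPM in Col-0 14 DAS, 22.9, 26.0 and 28.9 in DM6-DM7 adr1s and 12.8, 14.8 and 14.4 in Col-0 adr1s. BR6OX2 (AT3G30180), the last enzyme of brassinolide synthesis, stood at 116, 142 and 94.8 CPM in DM6-DM7, 14.9, 21.9 and 28.4 CPM in Col-0 14 DAS, 28.4, 35.1 and 37.8 in DM6-DM7 adr1s and 16.3, 21.7 and 24.8 in Col-0 adr1s. Both rose in both pairs, more in the intact pair, by 1.43 ± 0.15 and 1.74 ± 0.34 (edgeR adjusted p = 9.35e-06 and 0.00123). GA20OX3 (AT5G07200), a gibberellin oxidase outside the list, was among the 10 highest differences of all genes, at 9.57, 11.7 and 10.8 CPM in DM6-DM7, 0.04, 0.038 and 0 CPM in Col-0 14 DAS, 1.2, 0.96 and 1.08 in DM6-DM7 adr1s and 0.0652, 0.0384 and 0.0972 in Col-0 adr1s. Its difference passed (edgeR adjusted p = 0.00162), with a size that depends on the few counts in the controls.

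Growth transcription factors had 6 lower differences and 1 higher among 18 (16.3% and 14.9% of all genes tested). GRF4 (AT3G52910), a growth-regulating factor of young leaves, stood at 2.82, 1.53 and 1.85 CPM in DM6-DM7, 12.2, 11.4 and 9.96 CPM in Col-0 14 DAS, 8.58, 7.29 and 6.74 in DM6-DM7 adr1s and 12.8, 11.6 and 10.9 in Col-0 adr1s, a difference of -1.79 ± 0.35 (edgeR adjusted p = 0.0011). The 1 gene with a higher difference was PIF3 (AT1G09530), a factor held in check by phytochromes, at 0.85 ± 0.26 (edgeR adjusted p = 0.0209), which passed under 14 of 21 alternatives. Outside this list, the difference was higher for 1 and lower for 2 of the shoot meristem and flower markers. The higher one was KNAT1 (AT4G08150), a homeobox gene of the shoot meristem, at 26.8, 25.8 and 23.9 CPM in DM6-DM7, 3.82, 4.05 and 4.34 CPM in Col-0 14 DAS, 19.2, 22.3 and 20.7 in DM6-DM7 adr1s and 13.0, 13.1 and 12.5 in Col-0 adr1s. It rose in both pairs, by 1.96 ± 0.14 more in the intact pair (edgeR adjusted p = 5.07e-07). The lower ones were SEP3, at -1.29 ± 0.45, and AGL20, at -0.56 ± 0.16, both regulators of flowering (edgeR adjusted p = 0.0394 and 0.0141). SEP3 passed under 12 of 21 alternatives and AGL20 under 20 of 21.

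The stomatal lineage, which divides in the epidermis of young leaves, fell more in the intact pair, where 11 of 12 genes passed against 4 of 12 in the adr1s pair, with medians of -2.44 and -0.47. The difference was lower for 10 (16.3% of all genes tested) and higher for none, and lower for 10 or 11 over the left-out libraries. EPF2 (AT1G34245), a peptide that limits entry into the lineage, stood at 0.47, 0.112 and 0.267 CPM in DM6-DM7, 2.32, 1.86 and 2.79 CPM in Col-0 14 DAS, 4.88, 3.66 and 3.96 in DM6-DM7 adr1s and 4.97, 5.09 and 5.06 in Col-0 adr1s. TMM (AT1G80080; chromosome 1, 30127819 to 30129649), the receptor-like protein that modulates such peptides, stood at 4.91, 2.88 and 4.91 CPM in DM6-DM7, 20.3, 22.2 and 23.2 CPM in Col-0 14 DAS, 29.2, 20.6 and 21.4 in DM6-DM7 adr1s and 37.5, 35.6 and 32.8 in Col-0 adr1s. The DM6-DM7 libraries were the lowest for both genes. STOMAGEN (AT4G12970), the peptide that promotes stomata, stood at 0.989, 0.897 and 0.811 CPM in DM6-DM7, 12.0, 12.4 and 8.85 CPM in Col-0 14 DAS, 4.74, 7.03 and 4.61 in DM6-DM7 adr1s and 11.5, 10.9 and 12.8 in Col-0 adr1s. The 3 differences were -2.78 ± 0.47, -1.80 ± 0.26 and -2.52 ± 0.31 (edgeR adjusted p = 3.23e-04, 8.75e-05 and 2.45e-05).

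Epidermis, vascular and guard cell markers fell in the intact pair, whereas trichome, root, and meristem and flower markers were mixed there. Of 4 epidermis markers all fell in the intact pair by edgeR and none was called or had an unadjusted p below 0.05 in the adr1s pair. Their summed level was 582 to 742 CPM in DM6-DM7, 980.4 to 1203 across Col-0 14 DAS, 884 to 983 with the gene pair in adr1s, and 921 to 969 in Col-0 adr1s. Of 5 vascular markers the difference was lower for 4 (16.3% of all genes tested). Their sums were 104 to 123 CPM in DM6-DM7, 215 to 294 across Col-0 14 DAS, 211 to 219 with the gene pair in adr1s, and 251 to 297.5 in Col-0 adr1s. Of 4 guard cell markers it was lower for 2 (0 to 3 over the left-out libraries), with sums of 24.5 to 27.2, 44.7 to 59.9, 31.7 to 35.4 and 43.3 to 52.9 CPM in that order of groups. Of 4 trichome markers it was lower for 2, and the sums, 41.2 to 84.4 CPM, overlapped in both pairs. Root markers summed to 738 to 940.1 CPM in DM6-DM7, 417 to 537 across Col-0 14 DAS, 648 to 794 with the gene pair in adr1s, and 551 to 639.6 in Col-0 adr1s, so some root-expressed transcripts were counted in all groups, with at most 6 of 13 markers at 0. Of the 9 root markers tested the difference was lower for 2 and higher for none (16.3% and 14.9% of all genes tested). The median was -0.64. Of 12 markers of shoot meristem and flower the difference was higher for 1 and lower for 2 (14.9% and 16.3% of all genes tested). Their sums were 41.4 to 65.2 CPM over all libraries. Seed storage markers summed to at most 0.571 CPM. The part of cell composition in the gene lists was not tested. The epidermal factor PDF2 (AT4G04890) stood at 52.6, 43.5 and 51.0 CPM in DM6-DM7, 108, 129 and 148 CPM in Col-0 14 DAS, 129.8, 117 and 103 in DM6-DM7 adr1s and 128, 108 and 109 in Col-0 adr1s, a difference of -1.4 ± 0.16 (edgeR adjusted p = 1.36e-05). GL2 (AT1G79840), of trichome fate, stood at 1.58, 0.441 and 1.33 CPM in DM6-DM7, 16.6, 17.5 and 24.9 CPM in Col-0 14 DAS, 4.51, 4.96 and 4.01 in DM6-DM7 adr1s and 12.3, 9.55 and 10.3 in Col-0 adr1s, a difference of -2.90 ± 0.42 (edgeR adjusted p = 9.46e-05).

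Aliphatic glucosinolates, stored defence compounds of the cabbage family, are split by myrosinases when tissue is wounded. Of 14 tested genes, 12 fell in the intact pair and 11 in the adr1s pair. The difference was lower for 5 and higher for 2 (16.3% and 14.9% of all genes tested). The lower count was 3 without DM6-DM7 replicate 1, Col-0 14 DAS replicate 1 or any Col-0 adr1s library. The myrosinase gene TGG2 (AT5G25980; chromosome 5, 9072708 to 9075777) stood at 12.0, 5.46 and 5.67 CPM in DM6-DM7, 1144, 884 and 1238 CPM in Col-0 14 DAS, 66.9, 76.6 and 84.8 in DM6-DM7 adr1s and 401, 320.2 and 297 in Col-0 adr1s. No groups overlapped, and the effects were -7.15 ± 0.32 in the intact pair and -2.16 ± 0.25 in the adr1s pair, a difference of -4.99 ± 0.37 (edgeR adjusted p = 8.43e-07). ESP (AT1G54040), the epithiospecifier protein that steers the products of myrosinases and lies outside the list, was among the 10 lowest differences of all genes. ESP stood at 0.137, 0.016 and 0.107 CPM in DM6-DM7, 25.3, 17.9 and 23.2 CPM in Col-0 14 DAS, 2.07, 3.03 and 1.93 in DM6-DM7 adr1s and 11.8, 7.09 and 6.64 in Col-0 adr1s, a difference of -6.16 ± 0.60 (edgeR adjusted p = 9.63e-06). MYB29 (AT5G07690), a regulator of the pathway, had a difference of -2.91 ± 0.44 (edgeR adjusted p = 1.55e-04).

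Anthocyanin and flavonol genes fell in the intact pair, 10 of 12 by edgeR, and none was called in the adr1s pair, where 1 had an unadjusted p below 0.05. The difference was lower for 10 (16.3% of all genes tested), with a median of -3.77. Without Col-0 14 DAS replicate 1 it was lower for 6 and higher for 1, with a median of -2.03. The summed level was 1826 CPM in that library, 455 and 319 in the other 2 of its group, 38.4 to 69.4 in DM6-DM7, 111 to 117 with the gene pair in adr1s, and 200.4 to 259 in Col-0 adr1s. Chalcone synthase (annotated as TT4, AT5G13930; chromosome 5, 4488476 to 4490264), the first enzyme of the pathway, stood at 31.6, 8.22 and 11.8 CPM in DM6-DM7, 1363, 356 and 227 CPM in Col-0 14 DAS, 62.3, 61.2 and 53.8 in DM6-DM7 adr1s and 165, 126 and 165 in Col-0 adr1s. Neither pair overlapped, and the difference was -3.87 ± 0.80 (edgeR adjusted p = 0.00206) and -2.72 without Col-0 14 DAS replicate 1. MYB111 (AT5G49330), a regulator of flavonol synthesis, did not share the high level in that library, at 4.80, 4.04 and 3.36 CPM in Col-0 14 DAS, 0.607, 0.0641 and 0.303 in DM6-DM7, 5.61, 2.83 and 4.04 in DM6-DM7 adr1s and 3.96, 4.25 and 3.26 in Col-0 adr1s, and its difference was -3.79 ± 0.65 (edgeR adjusted p = 3.97e-04).

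Iron homeostasis and circadian clock genes showed few differences. Of 12 iron genes the difference was lower for 1 and higher for none (16.3% and 14.9% of all genes tested), with a median of -0.38. Without Col-0 14 DAS replicate 1 it was lower for 1 and higher for 3, with a median of 0.03. The 1 gene called was NAS4 (AT1G56430), a nicotianamine synthase, at 4.35, 2.14 and 2.53 CPM in DM6-DM7, 58.3, 20.0 and 23.7 CPM in Col-0 14 DAS, 9.76, 15.5 and 8.56 in DM6-DM7 adr1s and 14.4, 14.6 and 14.3 in Col-0 adr1s, a difference of -3.15 ± 0.60 (edgeR adjusted p = 0.00111) and of -2.51 without that library. Of 14 clock genes none had a called difference by edgeR, where unadjusted p-values below 0.05 numbered 1 higher and 1 lower, and DESeq2 called 1 lower. CCA1 (AT2G46830), a morning factor of the clock, fell in both pairs by like amounts, -1.55 ± 0.36 and -1.59 ± 0.36.

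Beyond the lists, the widest differences included genes without an assigned pathway here. AT3G45530, annotated as a cysteine/histidine-rich C1 domain protein, stood at 7.42, 7.97 and 9.43 CPM in DM6-DM7, 0, 0.057 and 0 CPM in Col-0 14 DAS, 0.718, 0.62 and 0.808 in DM6-DM7 adr1s and 0.0978, 0.0192 and 0.0648 in Col-0 adr1s. Its difference passed (edgeR adjusted p = 0.00432), again against controls of few counts. AT5G38020, annotated as a methyltransferase, had its 3 highest libraries in DM6-DM7, at 15, 19.6 and 27.5 CPM, against 3.35, 1.86 and 1.48 CPM in Col-0 14 DAS, 0.861, 0.768 and 0.555 in DM6-DM7 adr1s and 1.88, 1.92 and 2.64 in Col-0 adr1s, a difference of 4.77 ± 0.61 (edgeR adjusted p = 3.78e-05). Among the 10 lowest was MAF5 (AT5G65080), a relative of the flowering repressor FLC, at 3.43, 2.24 and 2.38 CPM in DM6-DM7, 4.68, 3.89 and 7.67 CPM in Col-0 14 DAS, 6.57, 8.53 and 6.53 in DM6-DM7 adr1s and 0.212, 0.269 and 0.276 in Col-0 adr1s. The 3 Col-0 adr1s libraries were the lowest, with a difference of -5.84 ± 0.50 (edgeR adjusted p = 1.56e-06). W-boxes were found in 5 of the 10 promoters with the highest differences and 3 of the 10 with the lowest, against 28.4% of all promoters, as-1 cores in 2 and 1 (19.1%), and G-boxes in 1 and 0 (7.01%).

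Genes with large effects of like sign in both pairs and no called difference included WRKY59 (AT2G21900), a WRKY factor, at 11.5, 9.67 and 8.68 CPM in DM6-DM7, 0, 0.019 and 0 CPM in Col-0 14 DAS, 1.37, 1.93 and 2.74 in DM6-DM7 adr1s and 0, 0 and 0 in Col-0 adr1s. Its controls were at or near 0 in both pairs, and its level with the gene pair was lower in adr1s. PCR1 (AT1G14880), annotated as a plant cadmium resistance protein, was at 487, 489.8 and 449.8 CPM in DM6-DM7, 1.15, 6.99 and 5.48 CPM in Col-0 14 DAS, 46.6, 114 and 112 in DM6-DM7 adr1s and 0, 0 and 0.0648 in Col-0 adr1s. Its difference of -5.16 ± 2.04 (edgeR adjusted p = 0.0673) passed under 4 of 21 alternatives, among them without Col-0 14 DAS replicate 1, at -5.62 (edgeR adjusted p = 0.0469). Among the genes that fell in both pairs was HPL1 (AT4G15440), a hydroperoxide lyase of leaf volatile synthesis, with effects of -4.28 ± 0.65 and -2.89 ± 0.64 and a difference that did not pass (edgeR adjusted p = 0.244).

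**Figure D4:**
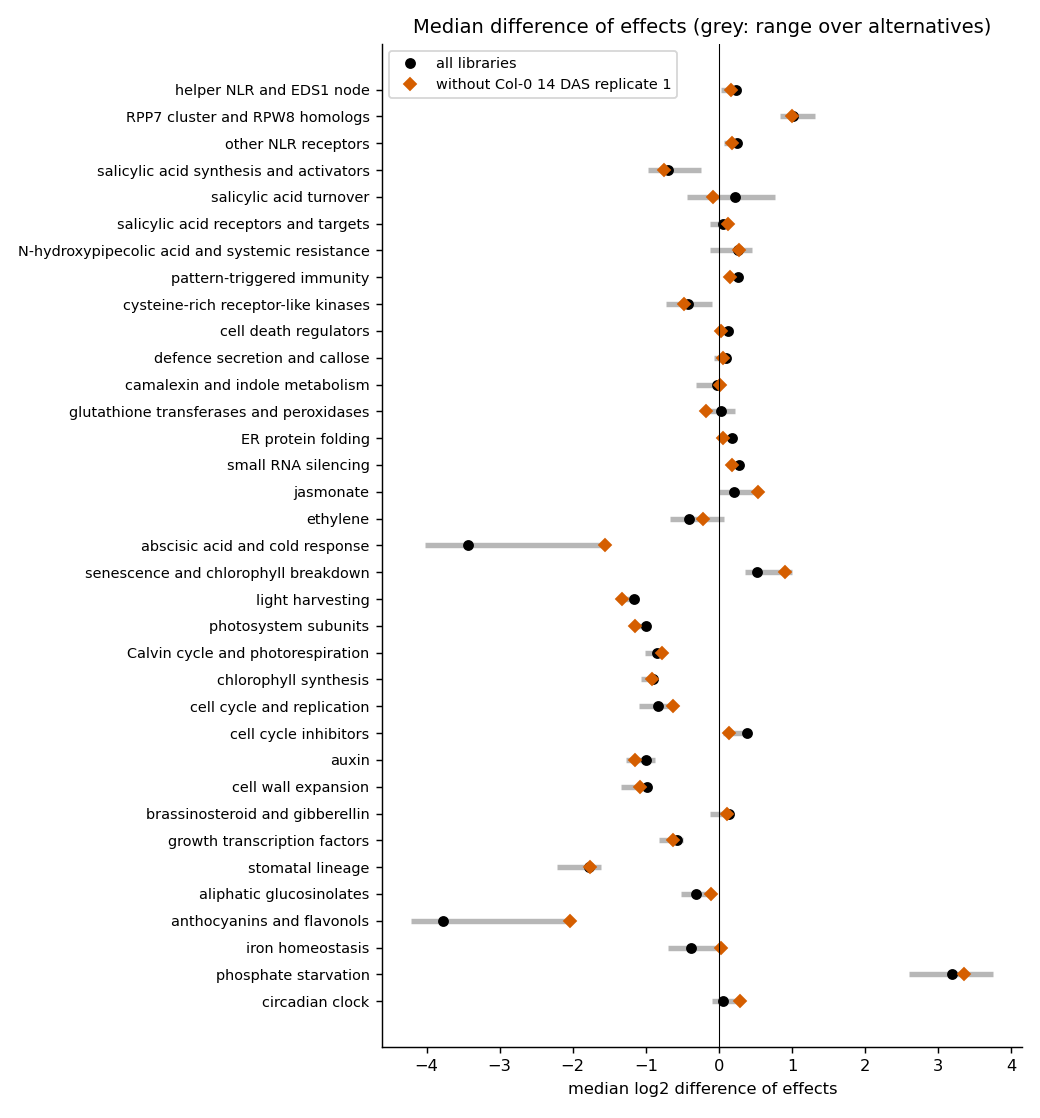
Median log2 difference of effects over the tested genes of each list (horizontal axis) with all libraries (circles) and without Col-0 14 DAS replicate 1 (diamonds); grey bars span the medians over all alternative settings. The cell type marker lists are not drawn. The bars of the photosynthesis, cell cycle, auxin, cell wall, stomatal and phosphate starvation lists stay on 1 side of 0, and among the lists drawn those of the abscisic acid and cold and anthocyanin lists are widest, from -4.02 to -1.55 for the former.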

How the data were processed

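RNA of the aerial tissue was sequenced as strand-specific paired reads, per the labels' protocols. The deposited values were whole-number counts per gene, made by the authors with fastp 0.23.2, HISAT2 2.2.1 and featureCounts 2.0.1 on TAIR10, per the submitters' processing notes. The counting options are not given in the sources used here. Among nonzero counts below 20, between 71.1% and 78.0% in each of the 12 libraries were even numbers, as when both mates of a pair are counted. Counting errors may therefore be larger than the totals imply. The share among higher counts was not taken. Of 32833 genes in the table, 23349 passed edgeR's low-count filter (minimum count 10). All 20 libraries entered 1 edgeR 4.0.16 quasi-likelihood fit (R 4.3.3, TMM scaling, group terms, robust), with Benjamini-Hochberg adjustment at 0.05. Library totals give the depth and limit the precision of low genes. On simulated data for the difference of effects over 23349 genes, 35% of 2-fold and 60% of 4-fold changes were recovered, and 4.04% of 99 calls were false. The data themselves gave 7277 calls, far more than the simulation. These rates therefore hold for the simulated setting only and are not taken as rates for the genes called here.

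Groups came from the labels. The members and gene lists were chosen with earlier results of these data known. Listed genes whose symbol the annotation does not give (24) were left out of the lists' counts. Counts of tested genes in a list leave them out, also where they were tested. Named genes were all members of 5 defence lists, of each other list up to 3 called genes with the lowest adjusted p in the larger direction and up to 2 in the other, the 10 highest and lowest differences and the 10 leading genes of opposite sign (mean of at least 2 CPM for the former), and 5 held genes in each direction. Not all genes that this rule names are reported here. Alternatives were other scalings, filters, tools (DESeq2 1.42.0, limma 3.58.1), left-out libraries, 12 libraries alone and a replicate block. The difference on the CPM scale and 2 motifs were added after seeing the data.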

Additional observations from a re-analysis of the deposited data

Results flagged for a closer look

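For 105 genes the DM6-DM7 effect was called in 1 direction in the intact pair and in the other in the adr1s pair, with a called difference, so that the gene pair went with a higher level in one background and a lower level in the other. These genes are few beside the 6508 called in the same direction in both pairs.

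Among the 10 with the lowest adjusted p, 7 rose in the intact pair and fell in the adr1s pair, and in none of the 10 did libraries of either pair overlap. RGLG3 (AT5G63970), annotated as a copine family protein, stood at 14.9, 17.8 and 16.3 CPM in DM6-DM7, 4.23, 3.23 and 3.51 CPM in Col-0 14 DAS, 3.13, 3.13 and 3.39 in DM6-DM7 adr1s and 6.24, 4.74 and 4.60 in Col-0 adr1s, a difference of 2.85 ± 0.27 (edgeR adjusted p = 2.41e-06). PGIP2 (AT5G06870), an inhibitor of fungal polygalacturonases, stood at 51.4, 56.6 and 66.1 CPM in DM6-DM7, 19.9, 25.2 and 31.6 CPM in Col-0 14 DAS, 20.7, 20.7 and 20.9 in DM6-DM7 adr1s and 38.0, 38.5 and 33.6 in Col-0 adr1s, a difference of 2.00 ± 0.24 (edgeR adjusted p = 1.61e-05). AT4G04460, annotated as a saposin-like aspartyl protease, stood at 9.49, 20.19 and 14.4 CPM in DM6-DM7, 2.48, 2.97 and 3.18 CPM in Col-0 14 DAS, 0.797, 0.93 and 0.824 in DM6-DM7 adr1s and 1.79, 2.38 and 2.03 in Col-0 adr1s, a difference of 3.63 ± 0.36 (edgeR adjusted p = 6.02e-06).

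The other genes of this direction were PEPC1 with a difference of 4.52 ± 0.50, TPS9 (AT1G23870), of the trehalose phosphate synthase family, with 1.82 ± 0.23, ESL1 (AT1G08920), a sugar transporter, with 1.74 ± 0.21, and AAE16 (AT3G23790), annotated as an AMP-dependent synthetase, with 1.18 ± 0.15. In the reverse direction MAF5 had a difference of -5.84 ± 0.50. AT3G52870, annotated as an IQ calmodulin-binding protein, had a difference of -1.65 ± 0.16, at 33.7, 32.7 and 37.6 CPM in DM6-DM7, 77.7, 73.0 and 53.0 CPM in Col-0 14 DAS, 46.6, 46.6 and 45.8 in DM6-DM7 adr1s and 29.0, 30.4 and 27.4 in Col-0 adr1s. AT5G49555, annotated as an FAD/NAD(P)-binding oxidoreductase, had a difference of -0.86 ± 0.11. All 10 differences passed under each of the 21 alternatives. Since the adr1s state and the label batch coincide, the background that goes with the change of sign cannot be told apart from batch or age.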

How the results depend on the processing

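The count of 7277 called differences stayed within 1.5 times under each change of scaling, filter, tool or library set (5771 to 7752 with 1 library left out, 7938 with DESeq2, 5905 from the 12 libraries alone), and it was 4177 at an adjusted p of 0.01 and 3362 at a log2 difference of at least 1. The share of higher calls, 47.79%, moved more: 37.98% with relative log expression scaling, 28.99% with upper-quartile scaling, 45.47% from the 12 libraries alone, 36.34% without organelle-encoded genes, 38.5% with DESeq2, 45.37% at an adjusted p of 0.01, 35.51% at a log2 difference of at least 1, and 34.45% (without DM6-DM7 adr1s replicate 1) to 50.79% (without Col-0 14 DAS replicate 1) with 1 library left out. The cause was not tested. With a replicate block in the 12 libraries, 5165 differences were called, 2325 higher and 2840 lower, a share of 45.01%. Libraries of equal number did not deviate together (correlations of -0.0287 to 0.0499), so the numbers are not taken as pairing. The 105 genes of opposite sign became 54 to 158 with 1 library left out and 165 with limma-voom, and the 265 genes with a larger effect in adr1s became 167 with the replicate block, 173 to 402 with 1 library left out and 424 with DESeq2. Of the named genes' differences over all alternatives, 4267 kept their side of the threshold, 261 lost and 44 gained the call, and none that was called turned in sign, while some uncalled ones did. The seed marker list gave no median where its genes were filtered out. Depth limits the values of low transcripts such as SPX3, HR2 and ALD1, most of all in the shallower adr1s libraries.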
